A study of Mus musculus with 14 samples.

Results

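Of 30 genes that make, sense, move and break down cholesterol, 29 could be followed across the sorted brain cells measured here, and 1, Acat2, was not analysed here. The members were chosen by symbol for their textbook roles, with no threshold on their values, and make up 29 of the 18193 genes on the arrays. They comprise 6 measured enzymes of the mevalonate arm, 11 of the sterol arm, 5 genes of the sterol sensor that controls them, and 7 genes of transport and turnover. The mice were 8 weeks old and of the hGFAP eGFP line, whose green fluorescent protein (GFP) is made under the control of a human GFAP promoter. GFP marks cells in which that promoter is active, which are not a single cell type. Cells of the subependymal zone (SEZ), the neurogenic layer beside the lateral ventricle, were sorted in 4 ways: SEZ_GFPprom (n = 4 arrays) by GFP together with the surface protein prominin, SEZ_GFP (n = 2) by GFP, SEZ_Prom (n = 2) by prominin and SEZ_CD24 (n = 2) by CD24. Cells of the diencephalon were sorted for GFP (DIEC_GFP, n = 4). Per the labels the first 3 sorts are neural stem cells, the CD24 sort is ependymal and the diencephalic sort is astrocytes. The arrays of a group are called biological replicates with nothing said of the animals behind them, so the tests rest on the spread among the arrays, which may be technical.

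Cholesterol is built from acetyl-CoA. The mevalonate arm makes isoprenoid units and joins them, and the sterol arm joins these into squalene, closes the rings to lanosterol and trims lanosterol to cholesterol. The blood-brain barrier keeps lipoprotein cholesterol of the blood out of the brain, so the brain makes its own. Astrocytes and oligodendrocytes are its main producers, and myelin is rich in it. When sterol in the endoplasmic reticulum is low, SCAP escorts the SREBP factors to the Golgi, where they are cut free and activate the genes of the pathway. INSIG proteins hold the complex back when sterol is plentiful. Surplus cholesterol leaves cells through ABC transporters onto apolipoprotein E, and neurons turn it into 24-hydroxycholesterol.

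In promoters of its target genes SREBP-2 binds its element together with NF-Y, a factor that binds CCAAT boxes. The promoters of 4 enzymes with results below are shown, and of these only that of Hmgcs1 holds a match to the element core sought. The sequences are from RefSeq (GRCm38.p6), run 5′ to 3′ on the strand of the gene and end at the base before its start. Capitals mark a match, on either strand, to the sterol regulatory element core TCACNCCAC or to the NF-Y box CCAAT, which reads ATTGG when it lies on the other strand. The stretches are chr13:119690201-119690350 (+) for Hmgcs1, chr5:4104698-4104797 (-) for Cyp51, chr8:64733579-64733678 (-) for Msmo1 and chrX:72918401-72918520 (+) for Nsdhl.
Hmgcs1: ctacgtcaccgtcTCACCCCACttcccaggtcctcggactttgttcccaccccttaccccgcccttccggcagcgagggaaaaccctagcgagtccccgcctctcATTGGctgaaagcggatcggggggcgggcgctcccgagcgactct
Cyp51: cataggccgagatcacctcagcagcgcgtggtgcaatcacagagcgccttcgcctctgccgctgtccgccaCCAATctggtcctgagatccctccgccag
Msmo1: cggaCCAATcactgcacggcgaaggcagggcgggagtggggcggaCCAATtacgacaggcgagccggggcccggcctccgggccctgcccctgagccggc
Nsdhl: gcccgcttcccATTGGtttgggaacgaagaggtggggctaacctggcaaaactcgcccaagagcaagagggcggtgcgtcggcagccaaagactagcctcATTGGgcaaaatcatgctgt
In Hmgcs1 the element core begins 137 bases and an NF-Y box 45 bases before the start. Cyp51 has an NF-Y box 29 bases before the start, Msmo1 has boxes 96 and 55 bases before it, and Nsdhl has boxes 109 and 20 bases before it. Promoters from 250 bases before to 50 bases after a start were held for 23 of the members, 14 of them enzymes. A gene with several promoters was counted if any of them held the match. CCAAT was in all 14 of these enzymes and in 20 of the 23 members, against 41.1% of 27025 genes. Among the enzymes, Dhcr7 and Pmvk also had promoters without CCAAT. The element core was in 1 member, Hmgcs1, against 1.44% of genes, and the E-box CACGTG, to which SREBP factors also bind, was in 6 members against 8.09% of genes. These matches describe letters in a window and were not tested as binding sites. Other forms of the element were not sought, so a promoter without a match to this core may still hold one.

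Markers of cell types were read before the members, as summed intensities per array. The 8 ependymal markers summed to 345 to 603 in SEZ_CD24, the sort labelled ependymal, and to 14245 to 24136 in SEZ_GFPprom. The CD24 arrays instead had sums of 13168 to 23276 for 8 neuroblast markers, with 13062 to 13346 in SEZ_GFP, and the highest sums of 8 microglia markers (13119 to 26007). Foxj1, the master factor of motile cilia, read 66 and 48 in SEZ_CD24 and 575 to 1086 in SEZ_GFPprom. All results on SEZ_CD24 rest on these 2 arrays, and without either of them 19 members in place of 17 differed between SEZ_GFPprom and DIEC_GFP. The 10 astrocyte markers summed to 18459 to 34105 in DIEC_GFP and to 15239 to 21801 over the 8 SEZ arrays other than CD24. DIEC_GFP replicate 4 stood apart from its group at 18459, where the other 3 arrays had 32449 to 34105, and without it 14, 7, 7 and 16 members differed from DIEC_GFP in SEZ_GFPprom, SEZ_GFP, SEZ_Prom and SEZ_CD24. DIEC_GFP also had high sums of 9 myelin markers (34560 to 51036) and of 6 oligodendrocyte progenitor markers (10440 to 13807). Arrays of the same group correlated across genes at r = 0.942 to 0.979, and arrays of different groups at 0.845 to 0.952.

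The cholesterol genes called different between a SEZ sort and the diencephalic GFP sort were lower in the SEZ, with 1 exception, Cyp46a1 in SEZ_GFPprom. In SEZ_GFPprom 16 of the 29 members were lower and 1 higher than in DIEC_GFP, while 17.8% of all genes differed, 7.78% lower and 10.1% higher. In SEZ_CD24 17 members were lower, while 16.6% of all genes differed and 9.74% were lower. In SEZ_GFP 8 members were lower, while 12.7% of all genes differed and 7.05% were lower. In SEZ_Prom 8 members were lower, while 6.33% of all genes differed and 2.98% were lower. None of the members was higher in these last 3 sorts, against 5.61% of all genes in SEZ_GFP, 3.35% in SEZ_Prom and 6.9% in SEZ_CD24. The median difference over the members (log2) was -0.96 in SEZ_GFPprom, -0.61 in SEZ_GFP, -0.83 in SEZ_Prom and -1.21 in SEZ_CD24, where the medians of all genes were 0.08, 0.00, 0.02 and -0.01. The 4 comparisons share the DIEC_GFP arrays, so they are not independent of each other. In a sorted population, fewer cells of a type and less RNA per cell cannot be told apart. Without SEZ_GFP replicate 1 or 2 the count in SEZ_GFP was 3 or 2, without either SEZ_Prom array that in SEZ_Prom was 2, and without SEZ_CD24 replicate 1 that in SEZ_CD24 was 7.

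The arrays themselves show the same without a test. All arrays of SEZ_GFPprom lay below all of DIEC_GFP in 17 members, against 7.77% of genes, and above in 1, against 11.6%. For the sorts with 2 arrays, which lie apart more often by their small number, the members below and above were 18 and 0 in SEZ_GFP (16.4% and 15.7% of genes), 17 and 1 in SEZ_Prom (11.6% and 14.3%), and 21 and 0 in SEZ_CD24 (16.6% and 14.4%). In 11 of 29 members all 10 SEZ arrays lay below all 4 DIEC_GFP arrays, as they did in 2.49% of all genes, and in no member did they all lie above, against 2.33% of genes.

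**Figure D1:**
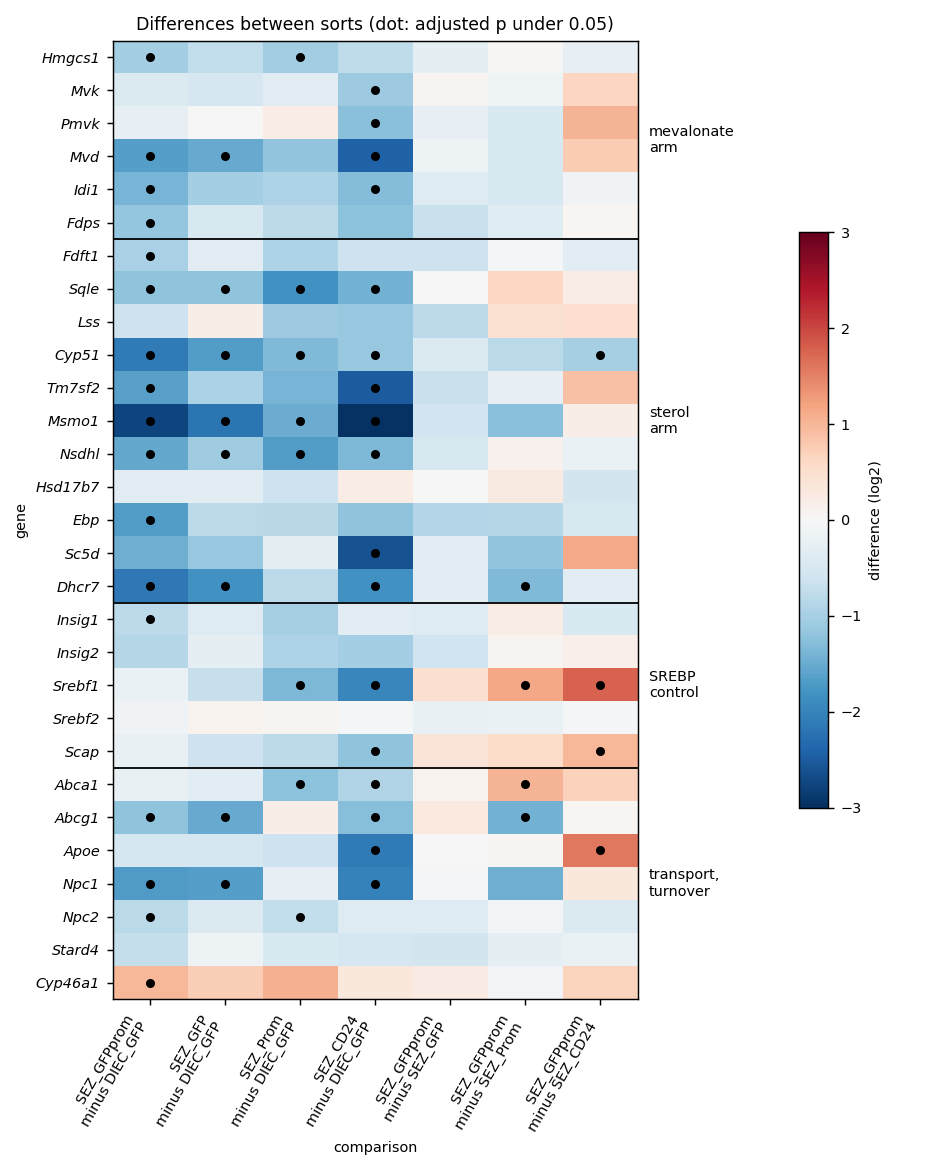
Difference between sorts (log2, colour) for the 29 members (rows, by role) in the 7 comparisons (columns), with a dot where the adjusted p of limma was under 0.05. The 4 columns against DIEC_GFP are mostly blue, with 16, 8, 8 and 17 members lower, and the column of SEZ_GFPprom against SEZ_GFP has no dot.

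Most of the calls against DIEC_GFP were of the enzymes of synthesis, which are also most of the members, 17 of 29. Of the 17, 12 were lower in SEZ_GFPprom, 6 in SEZ_GFP, 5 in SEZ_Prom and 11 in SEZ_CD24, and 0 were higher in any of them. Of all genes 7.78%, 7.05%, 2.98% and 9.74% were lower in these comparisons and 10.1%, 5.61%, 3.35% and 6.9% higher. The mean log2 intensity of the 17 enzymes was 8.97 to 9.44 in the DIEC_GFP arrays and 7.38 to 8.33 in the SEZ arrays. A test of any difference among the 5 sorts (limma's moderated F, adjusted over all genes) called 10 of 17 enzymes, 2 of 5 control genes and 5 of 7 transport and turnover genes, against 25.8% of all genes.

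In the sterol arm the largest differences between SEZ_GFPprom and DIEC_GFP were those of Msmo1, Dhcr7 and Cyp51. Msmo1 (chr8:64718123-64733578), the oxidase that attacks both methyl groups at carbon 4, read 1301, 2417, 1165 and 1180 in DIEC_GFP, 273, 148, 284 and 184 in SEZ_GFPprom, 263 and 384 in SEZ_GFP, 656 and 403 in SEZ_Prom, and 212 and 163 in SEZ_CD24. All SEZ arrays lay under the lowest diencephalic array, and the SEZ_Prom arrays were the nearest to it. The difference from DIEC_GFP (log2, with SE) was -2.75 ± 0.30 in SEZ_GFPprom, -2.18 ± 0.37 in SEZ_GFP (adjusted p = 0.00261), -1.49 ± 0.37 in SEZ_Prom (adjusted p = 0.0335) and -2.96 ± 0.37 in SEZ_CD24 (adjusted p = 0.000315). The dimmer of its 2 probe sets differed by only -0.30 in SEZ_GFPprom. With both probe sets averaged the SEZ_GFP and SEZ_Prom calls were lost (adjusted p = 0.347 and 0.107). The SEZ_Prom call was also lost without DIEC_GFP replicate 1 (0.0509) or 2 (0.0578), or SEZ_Prom replicate 1 (0.0832) or 2 (0.294).

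Cyp51 (chr5:4080674-4104697), the demethylase at carbon 14 of lanosterol, read 475, 851, 708 and 674 in DIEC_GFP and 177, 119, 175 and 146 in SEZ_GFPprom. It read 227 and 189 in SEZ_GFP, 286 and 245 in SEZ_Prom, and 292 and 313 in SEZ_CD24. The sorts did not overlap with DIEC_GFP, and the CD24 sort stood highest of the SEZ sorts. Differences were -2.12 ± 0.20 in SEZ_GFPprom, -1.68 ± 0.24 in SEZ_GFP (adjusted p = 0.00106), -1.32 ± 0.24 in SEZ_Prom (0.00765) and -1.13 ± 0.24 in SEZ_CD24 (0.0072). Its other 2 probe sets differed in the same direction in SEZ_GFPprom (-0.93 and -0.64). With the mean of the probe sets the SEZ_GFP and SEZ_CD24 calls were lost (adjusted p = 0.0934 and 0.232). The SEZ_Prom call was lost without SEZ_Prom replicate 1 (0.0522) or 2 (0.0819), and the SEZ_CD24 call without SEZ_CD24 replicate 1 (0.0534).

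Nsdhl (chrX:72918521-72958528), the dehydrogenase that follows Msmo1 in that demethylation, read 560, 901, 546 and 628 in DIEC_GFP, 217, 219, 153 and 333 in SEZ_GFPprom, 341 and 282 in SEZ_GFP, 235 and 175 in SEZ_Prom, and 227 and 284 in SEZ_CD24. Here SEZ_Prom was the farthest from DIEC_GFP, with a difference of -1.67 ± 0.30 (adjusted p = 0.00717), and SEZ_GFPprom differed by -1.54 ± 0.25 (0.0018), SEZ_CD24 by -1.34 ± 0.30 (0.00933) and SEZ_GFP by -1.06 ± 0.30 (0.0388). The SEZ_GFP call was lost when any of 7 of the 14 arrays was left out (adjusted p = 0.0511 to 0.281), the SEZ_Prom call without SEZ_Prom replicate 2 (0.0866) and the SEZ_CD24 call without SEZ_CD24 replicate 1 (0.0833).

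Dhcr7 (chr7:143823167-143848410), the reductase of the last step on the branch through 7-dehydrocholesterol, read 456, 698, 752 and 753 in DIEC_GFP, 194, 186, 78 and 166 in SEZ_GFPprom, 186 and 182 in SEZ_GFP, 380 and 359 in SEZ_Prom, and 141 and 241 in SEZ_CD24. The SEZ_Prom arrays stood between the others and DIEC_GFP. It was lower than in DIEC_GFP by -2.15 ± 0.30 in SEZ_GFPprom (adjusted p = 0.000797), -1.82 ± 0.36 in SEZ_GFP (0.00673) and -1.82 ± 0.36 in SEZ_CD24 (0.00491), while the SEZ_Prom difference of -0.82 ± 0.36 missed the threshold (0.248). The SEZ_GFP call was lost without SEZ_GFP replicate 1 (0.0553) or 2 (0.0734), and the SEZ_CD24 call without SEZ_CD24 replicate 1 (0.0681).

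Among the other sterol arm enzymes, Sqle, the squalene epoxidase that sets a pace for the arm, was lower in all 4 SEZ sorts, from -1.20 in SEZ_GFPprom to -1.82 in SEZ_Prom. Its SEZ arrays read 489 to 1124 and its DIEC_GFP arrays 1630 to 2786. Tm7sf2, a reductase at carbon 14, was lower in SEZ_GFPprom (-1.63) and SEZ_CD24 (-2.50). Ebp, an isomerase of the sterol ring, and Fdft1, which makes squalene, were lower in SEZ_GFPprom (-1.68 and -0.96), and Sc5d, a desaturase, was lower in SEZ_CD24 (-2.62). The CD24 arrays of Sc5d read 35 and 255. In SEZ_GFPprom it read 172 to 287, against 411 to 746 in DIEC_GFP, and its difference of -1.47 just missed the threshold (adjusted p = 0.052). That difference passed with the mean of probe sets (0.00204) and in a fit of only the groups compared (0.00773). The Ebp call was lost without DIEC_GFP replicate 4 (adjusted p = 0.0568) or SEZ_GFPprom replicate 3 (0.0567), and that of Fdft1 without DIEC_GFP replicate 3 (0.0503) or SEZ_GFPprom replicate 3 (0.0594) or 4 (0.056). The Fdft1 call was also lost with the mean of its probe sets (0.061), of which the dimmer ones differed by -1.69, 0.55 and 0.11. Sqle lost its SEZ_GFP call without DIEC_GFP replicate 2 (0.0501) or SEZ_GFP replicate 1 (0.184) or 2 (0.103), its SEZ_Prom call without SEZ_Prom replicate 2 (0.0652) and its SEZ_CD24 call without SEZ_CD24 replicate 1 (0.11), which also ended that of Sc5d (0.0614). Lss, which closes the rings, and Hsd17b7 passed in no comparison. Their brightest probe sets match sequence shared between transcripts, and without such probe sets both were lower in SEZ_GFPprom (-1.16, adjusted p = 0.0391, and -1.27, adjusted p = 0.0427). The Lss difference in SEZ_GFP then changed from 0.17 to -1.69 (adjusted p = 0.0223).

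**Figure D2:**
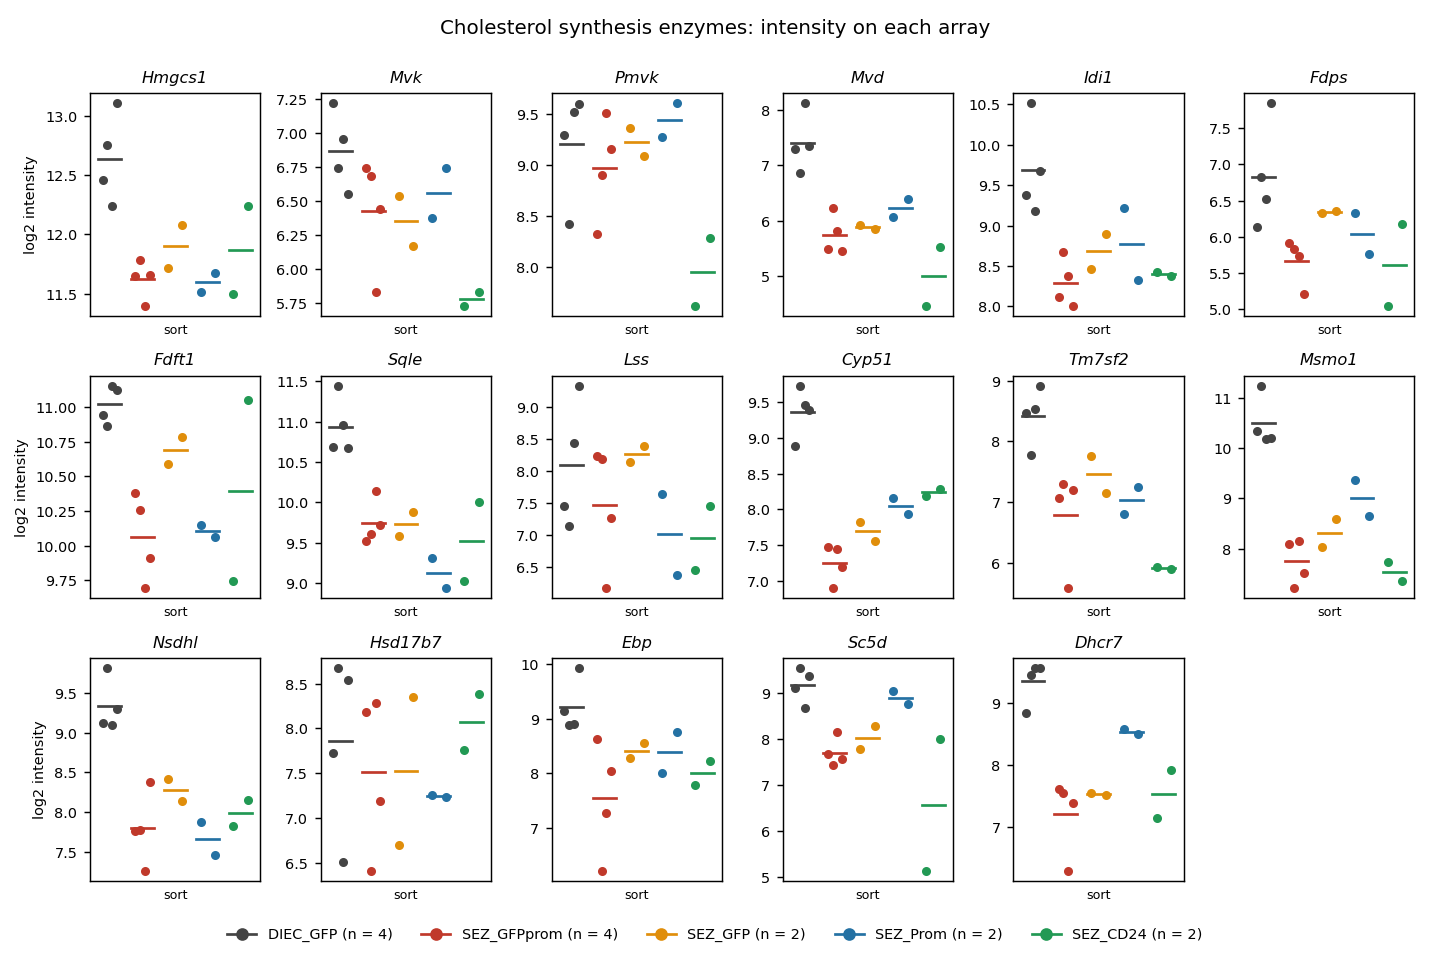
Log2 intensity of the 17 synthesis enzymes on each array (points) with the mean of each sort (lines), sorts from left to right as in the legend. Each panel has its own scale. In Msmo1, Cyp51, Nsdhl, Dhcr7 and Sqle the 10 SEZ arrays lie below the 4 DIEC_GFP arrays, while Lss and Hsd17b7 overlap widely.

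Of the 6 mevalonate arm enzymes, 4 were lower than in DIEC_GFP in SEZ_GFPprom, 1 in SEZ_GFP, 1 in SEZ_Prom and 4 in SEZ_CD24, with 0 higher. The shares of all genes that were lower were 7.78%, 7.05%, 2.98% and 9.74%, and those higher 10.1%, 5.61%, 3.35% and 6.9%. Mvd (chr8:122433596-122443422), the decarboxylase that makes isopentenyl diphosphate, read 157, 116, 279 and 164 in DIEC_GFP, 45, 75, 56 and 44 in SEZ_GFPprom, 61 and 58 in SEZ_GFP, 67 and 84 in SEZ_Prom, and 22 and 46 in SEZ_CD24. The sorts did not overlap with DIEC_GFP. Differences were -1.66 ± 0.30 in SEZ_GFPprom (adjusted p = 0.00348), -1.51 ± 0.37 in SEZ_GFP (0.0186) and -2.42 ± 0.37 in SEZ_CD24 (0.000991), and -1.18 ± 0.37 in SEZ_Prom missed the threshold (0.0881). The SEZ_GFP call was lost without SEZ_GFP replicate 1 (0.102) or 2 (0.144).

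Hmgcs1 (chr13:119690351-119708260), which makes HMG-CoA at the entry of the pathway, read 5641, 6903, 4828 and 8832 in DIEC_GFP, 3213, 3524, 2695 and 3232 in SEZ_GFPprom, 3374 and 4322 in SEZ_GFP, 2929 and 3272 in SEZ_Prom, and 2892 and 4826 in SEZ_CD24. The highest SEZ array and the lowest DIEC_GFP array, 4826 and 4828, almost touched. It was lower in SEZ_GFPprom (-1.02 ± 0.22, adjusted p = 0.00844) and in SEZ_Prom (-1.04 ± 0.27, 0.0394), but the SEZ_Prom call was lost when any of 10 of the 14 arrays was left out (0.0505 to 0.252). The differences in SEZ_GFP (-0.74, adjusted p = 0.0979) and SEZ_CD24 (-0.77, 0.0718) missed the threshold.

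Idi1 (chr13:8885606-8892396), the isomerase of isopentenyl diphosphate, read 668, 1463, 582 and 818 in DIEC_GFP and 277, 408, 331 and 257 in SEZ_GFPprom, with 354 and 476 in SEZ_GFP, 597 and 321 in SEZ_Prom, and 343 and 331 in SEZ_CD24. Only a SEZ_Prom array reached into the diencephalic range. It was lower in SEZ_GFPprom (-1.40 ± 0.30, adjusted p = 0.00794) and SEZ_CD24 (-1.29 ± 0.36, 0.0296). The SEZ_CD24 call was lost without SEZ_CD24 replicate 1 or 2 (differences of -1.32 and -1.27), with only the groups compared (0.0986) and with array weights (0.0612). The dimmer of its 2 probe sets, of nearly equal brightness, differed by only -0.45 in SEZ_GFPprom. Mvk (chr5:114444264-114460591), the mevalonate kinase, read 149, 107, 124 and 94 in DIEC_GFP, 107, 103, 57 and 87 in SEZ_GFPprom, 93 and 72 in SEZ_GFP, 83 and 107 in SEZ_Prom, and 53 and 57 in SEZ_CD24. Its GFP and prominin sorts lay close to DIEC_GFP, with differences of -0.31 to -0.51 that missed the threshold, and only the CD24 sort was lower (-1.09 ± 0.27, adjusted p = 0.0175), a call lost without SEZ_CD24 replicate 1 (0.101) or 2 (0.0817). Fdps, which builds farnesyl diphosphate, was lower in SEZ_GFPprom (-1.16, adjusted p = 0.0435), and Pmvk, the second kinase of the arm, in SEZ_CD24 (-1.25, 0.0404). Both calls were lost when any of 11 of the 14 arrays was left out, with adjusted p from 0.0527 to 0.108 for Fdps and from 0.0522 to 0.287 for Pmvk.

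The genes of the sterol sensor did not move as one group. Srebf2, which encodes the SREBP form that mainly drives cholesterol genes, read 117, 100, 144 and 146 in DIEC_GFP, 125, 132, 94 and 116 in SEZ_GFPprom, 137 and 133 in SEZ_GFP, 101 and 176 in SEZ_Prom, and 105 and 137 in SEZ_CD24. All sorts overlapped. Its difference from DIEC_GFP lay between -0.11 and 0.11 in the 4 comparisons, with a 95% interval of -0.56 to 0.34 in SEZ_GFPprom and adjusted p of 0.754 or more. The dimmer of its 2 probe sets differed by -0.95 in SEZ_GFPprom. SREBP-2 is activated by cleavage, which these arrays do not measure.

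Srebf1 (chr11:60199084-60224186) encodes the SREBP form that mainly drives fatty acid genes. It read 3218, 1836, 2177 and 2291 in DIEC_GFP, 2384, 2057, 1948 and 1807 in SEZ_GFPprom, 1589 and 1328 in SEZ_GFP, 646 and 1300 in SEZ_Prom, and 741 and 488 in SEZ_CD24. The double-positive sort lay within the diencephalic range or just under it, and the other 3 sorts lay below both. Srebf1 was lower than in DIEC_GFP in SEZ_Prom (-1.35 ± 0.30, adjusted p = 0.021) and SEZ_CD24 (-1.95 ± 0.30, 0.00109), and higher in SEZ_GFPprom than in SEZ_CD24 (1.76 ± 0.30, 0.00311). It was also higher in SEZ_GFPprom than in SEZ_Prom (1.15 ± 0.30, 0.0411), but that call was lost when any of 8 of the 14 arrays was left out (0.0504 to 0.392). The SEZ_Prom difference from DIEC_GFP was lost without SEZ_Prom replicate 1 (0.273).

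Scap (chr9:110333288-110384949), the escort of SREBP, read 746, 452, 809 and 833 in DIEC_GFP, 527, 749, 443 and 692 in SEZ_GFPprom, 422 and 482 in SEZ_GFP, 346 and 467 in SEZ_Prom, and 274 and 324 in SEZ_CD24. Only the CD24 sort lay wholly under DIEC_GFP, with a difference of -1.21 ± 0.29 (adjusted p = 0.0127) that was lost without SEZ_CD24 replicate 1 (0.0961) or 2 (0.0539). Insig1 (chr5:28071412-28078662), the retention protein that is itself a target of SREBP, read 397, 496, 230 and 406 in DIEC_GFP, 236, 244, 198 and 186 in SEZ_GFPprom, 285 and 274 in SEZ_GFP, 217 and 157 in SEZ_Prom, and 252 and 342 in SEZ_CD24. The diencephalic array at 230 lay within the SEZ values, and SEZ_Prom alone lay wholly under DIEC_GFP. Insig1 was lower in SEZ_GFPprom (-0.78 ± 0.23, adjusted p = 0.0379), a call lost when any of 9 of the 14 arrays was left out (0.0541 to 0.106). Insig2, its homologue, differed by -0.86 in SEZ_GFPprom (adjusted p = 0.073) and passed in no comparison.

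The transport and turnover genes split by sort. Abcg1 (chr17:31057694-31117984), a cholesterol exporter, read 342, 413, 252 and 366 in DIEC_GFP, 183, 138, 135 and 131 in SEZ_GFPprom, 146 and 95 in SEZ_GFP, 305 and 487 in SEZ_Prom, and 203 and 95 in SEZ_CD24. The SEZ_Prom arrays stood at the diencephalic level and the other SEZ sorts under it. Abcg1 was lower than in DIEC_GFP by -1.22 ± 0.27 in SEZ_GFPprom (adjusted p = 0.0102), -1.52 ± 0.33 in SEZ_GFP (0.0106) and -1.28 ± 0.33 in SEZ_CD24 (0.0199), and by -1.41 ± 0.33 in SEZ_GFPprom against SEZ_Prom (0.0259). The SEZ_GFP call was lost without SEZ_GFP replicate 2 (0.163) and the SEZ_CD24 call without SEZ_CD24 replicate 2 (0.254). The call against SEZ_Prom was lost without SEZ_GFPprom replicate 2 (0.0537) or 4 (0.055), or SEZ_Prom replicate 1 (0.0651) or 2 (0.241).

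Npc1, the membrane protein that carries cholesterol out of lysosomes, was likewise at the diencephalic level in SEZ_Prom. It read 299, 367, 172 and 438 in DIEC_GFP, 116, 104, 52 and 117 in SEZ_GFPprom, 116 and 79 in SEZ_GFP, 205 and 319 in SEZ_Prom, and 69 and 79 in SEZ_CD24. It was lower in SEZ_GFPprom (-1.70 ± 0.33, adjusted p = 0.00538), SEZ_GFP (-1.66 ± 0.41, 0.0204) and SEZ_CD24 (-2.03 ± 0.41, 0.00515), and the SEZ_Prom difference from DIEC_GFP was -0.24 with a 95% interval of -1.13 to 0.66. The SEZ_GFP call was lost without SEZ_GFP replicate 1 (0.0633) or 2 (0.219). Npc2, its soluble partner in the lysosome, was lower in SEZ_GFPprom (-0.82, adjusted p = 0.00229) and SEZ_Prom (-0.73, 0.0227), the latter lost without SEZ_Prom replicate 1 (0.242) or 2 (0.0572).

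Apoe (chr7:19696244-19701310), the main lipid carrier made by astrocytes and microglia, read 14070, 9881, 14452 and 9469 in DIEC_GFP, 9039, 7983, 8100 and 7377 in SEZ_GFPprom, 8978 and 7292 in SEZ_GFP, 7246 and 8116 in SEZ_Prom, and 5299 and 1362 in SEZ_CD24. The GFP and prominin sorts lay just under DIEC_GFP with differences of -0.54 to -0.61 that missed the threshold, and both CD24 arrays lay far under. The SEZ_CD24 difference was -2.13 ± 0.41 (adjusted p = 0.00393) and passed in every fit that left out 1 array, but not in a fit of these 2 groups alone (0.064). It was -3.11 without SEZ_CD24 replicate 1 and -1.15 without replicate 2. SEZ_GFPprom was higher than SEZ_CD24 by 1.59 ± 0.41 (0.0246), lost without SEZ_CD24 replicate 2 (0.258) or SEZ_GFPprom replicate 1 (0.0517). The CD24 arrays had the highest sums of microglia markers and the lowest of astrocyte markers (4622 to 12798), whose part in this result was not tested.

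Abca1 (chr4:53030789-53159988), the exporter that loads apolipoproteins, read 721, 1085, 1065 and 656 in DIEC_GFP, 841, 629, 720 and 787 in SEZ_GFPprom, 701 and 671 in SEZ_GFP, 290 and 458 in SEZ_Prom, and 544 and 388 in SEZ_CD24. The GFP-gated sorts overlapped with DIEC_GFP, and the prominin and CD24 sorts lay under it. It was lower in SEZ_Prom (-1.24 ± 0.27, adjusted p = 0.0176) and SEZ_CD24 (-0.90 ± 0.27, 0.0378). The first call was lost without SEZ_Prom replicate 1 (0.233), and the second when any of 7 of the 14 arrays was left out (0.0508 to 0.285). Averaged with its 2 dim probe sets, both differences fell short of the threshold (-0.31 and -0.26). Cyp46a1 (chr12:108334268-108362234), the neuronal enzyme that makes 24-hydroxycholesterol, went the other way. It read 33, 63, 51 and 75 in DIEC_GFP, 100, 146, 100 and 84 in SEZ_GFPprom, 73 and 108 in SEZ_GFP, 85 and 147 in SEZ_Prom, and 74 and 60 in SEZ_CD24. It was the 1 member higher in SEZ_GFPprom (0.99 ± 0.29, adjusted p = 0.0339), a call lost when any of 6 of the 14 arrays was left out (0.052 to 0.094) and with equal medians (0.064). A fit of only the groups compared lost it as well (0.056). Of 5 mature neuron markers, 2 were higher in SEZ_GFPprom, Camk2a and Rbfox3, and 3 had a negative difference, with a median of -0.105 over the 5. Their summed intensity was 152 to 1658 in DIEC_GFP and 1939 to 4036 in SEZ_GFPprom, and their part in this result was not tested. Stard4, a cytosolic sterol carrier, passed in no comparison.

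**Figure D3:**
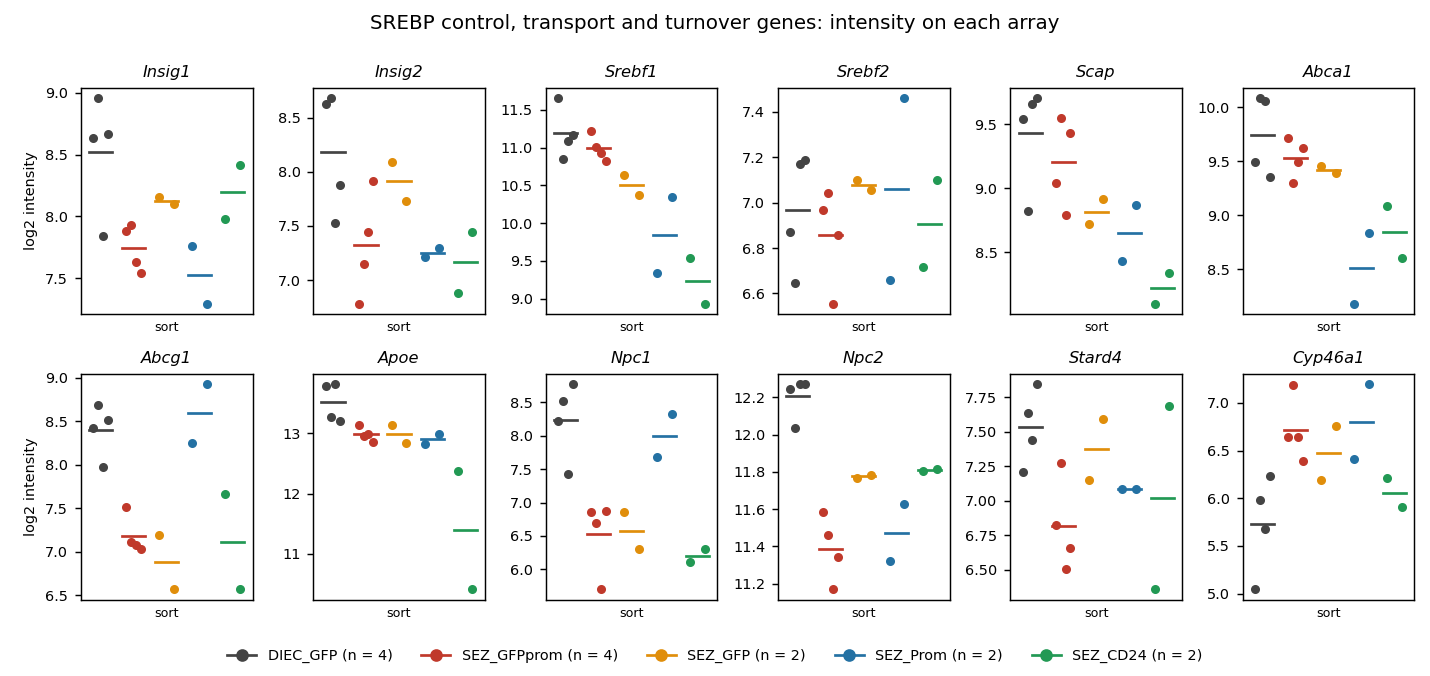
Log2 intensity of the 5 SREBP control genes and the 7 transport and turnover genes on each array (points) with the mean of each sort (lines), sorts from left to right as in the legend. Each panel has its own scale. Srebf2 overlaps in all sorts, and the SEZ_Prom arrays of Abcg1 and Npc1 lie at the DIEC_GFP level.

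Within the subependymal zone SEZ_GFPprom was compared with each of the other 3 sorts, which were not compared with each other. Between SEZ_GFPprom and SEZ_GFP limma called 0 of 29 members, with 1 at an unadjusted p under 0.05, against 3.17% of all genes called, 0.539% lower and 2.63% higher. The median difference was -0.32, that of all genes 0.07. The 95% intervals of the enzymes remained wide, as with -1.37 to 0.24 for Msmo1 and -0.97 to 0.08 for Cyp51. Between SEZ_GFPprom and SEZ_Prom 2 members were higher, Srebf1 and Abca1 (1.02, adjusted p = 0.0416), and 2 lower, Abcg1 and Dhcr7 (-1.33, 0.0495), against 4.4% and 2.76% of all genes and 7.16% in either direction. That count was 0 without SEZ_GFPprom replicate 2 or 4 or SEZ_Prom replicate 1, 1 without SEZ_GFPprom replicate 1, SEZ_Prom replicate 2 or either SEZ_GFP array and 2 without SEZ_GFPprom replicate 3. The Dhcr7 call was lost when any of 10 of the 14 arrays was left out (0.0541 to 0.248) and that of Abca1 when any of 8 was (0.0507 to 0.355).

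Between SEZ_GFPprom and SEZ_CD24 3 members were higher, Srebf1, Apoe and Scap (0.99, adjusted p = 0.0412), and 1 lower, Cyp51 (-0.99 ± 0.24, 0.0198), against 8.98% and 4.74% of all genes and 13.7% in either direction. The count was 2 without SEZ_CD24 replicate 2 or SEZ_GFPprom replicate 1 and 6 without SEZ_GFPprom replicate 3. Cyp51 missed the threshold without SEZ_CD24 replicate 1 (0.0691) or 2 (0.132), and Scap did when any of 8 of the 14 arrays was left out (0.0526 to 0.19), with equal medians (0.115) and with the mean of its probe sets (0.19 on the log2 scale, adjusted p = 0.683). The Srebf1 call held in all 26 alternatives run. All arrays of SEZ_GFPprom lay below those of SEZ_GFP in 6 members and above in 1, against 9.89% and 15.9% of genes. Against SEZ_Prom these counts were 6 and 3 (14.8% and 16.5% of genes) and against SEZ_CD24 3 and 6 (13.0% and 20.8%).

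Other genes of sterol handling and the neighbouring fatty acid pathway were followed as lists. Of 25 measured further genes of sterol uptake, storage, oxysterol metabolism, SREBP processing and adjoining steps, 10 were lower and 1 higher in SEZ_GFPprom than in DIEC_GFP, 8 and 1 in SEZ_GFP, 2 and 0 in SEZ_Prom, and 9 and 3 in SEZ_CD24. Of all genes 7.78%, 7.05%, 2.98% and 9.74% were lower in these comparisons and 10.1%, 5.61%, 3.35% and 6.9% higher. The 3 genes higher in SEZ_CD24, named after their values were seen, were Lrp8, Mbtps1, a protease that cleaves SREBP, and Ggps1, which makes geranylgeranyl diphosphate. The Ggps1 call was lost in 7 of 26 alternatives, the mean of probe sets among them, with differences from 0.036 to 1.31. That of Mbtps1 was lost with the mean of probe sets (adjusted p = 0.0655), and that of Lrp8 held in all 26. Cyp27a1, a mitochondrial sterol hydroxylase, read 251 to 429 in DIEC_GFP and 37 to 61 in SEZ_GFPprom (-2.67 ± 0.33, adjusted p = 0.000374). Lipa, the lysosomal lipase that frees cholesterol from its esters, read 367 to 625 and 111 to 215 (-1.70 ± 0.25, 0.00124), and Lcat, which esterifies cholesterol on lipoproteins, 125 to 298 and 37 to 74 (-1.95 ± 0.31, 0.00179). The gene that was higher in SEZ_GFPprom was Lrp8, a receptor for apolipoprotein E and reelin. It read 106 to 190 in DIEC_GFP, 333 to 450 in SEZ_GFPprom, 1019 and 1737 in SEZ_GFP, 281 and 197 in SEZ_Prom, and 876 and 1249 in SEZ_CD24. It was higher than in DIEC_GFP in SEZ_GFPprom (1.43 ± 0.23, adjusted p = 0.0021), SEZ_GFP (3.20 ± 0.29, 8.63e-05) and SEZ_CD24 (2.85 ± 0.29, 9.23e-05), and lower in SEZ_GFPprom than in SEZ_GFP (-1.77 ± 0.29, 0.00471).

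Of 15 fatty acid synthesis genes, targets mainly of SREBP-1, 8 were lower in SEZ_GFPprom, 6 in SEZ_GFP, 5 in SEZ_Prom and 8 in SEZ_CD24 than in DIEC_GFP, with 0 higher, where 7.78%, 7.05%, 2.98% and 9.74% of all genes were lower. Elovl5, an elongase, read 5402 to 9617 in DIEC_GFP and 2118 to 2809 in SEZ_GFPprom (-1.36 ± 0.19, adjusted p = 0.000914). Scd2, the main stearoyl-CoA desaturase of the brain, read 8239 to 11383 and 4529 to 4762 (-0.96 ± 0.14, 0.000929). With the mean of the probe sets the Scd2 call was lost (0.0841). Acss2, which makes acetyl-CoA from acetate, differed by -1.36 ± 0.21 (0.00148), and Me1, the malic enzyme that supplies NADPH, by -1.91 ± 0.27 (0.000945).

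Markers of several cell types moved with these comparisons. The 9 measured myelin markers summed to 10837 to 17403 in SEZ_GFPprom, 4970 to 7595 in SEZ_GFP and 6531 to 12349 in SEZ_CD24, all under the 34560 to 51036 of DIEC_GFP, and 7, 9 and 8 of the 9 were lower there. In SEZ_Prom they summed to 39340 to 39545 and 0 of 9 differed from DIEC_GFP. In the same sort 5 of 17 enzymes were lower, namely Hmgcs1, Sqle, Cyp51, Msmo1 and Nsdhl, and the mean enzyme level of its arrays was 8.14 to 8.29. Of these 5 calls, 0 held without SEZ_Prom replicate 2, and those of Sqle and Nsdhl held without replicate 1. No myelin marker was listed at 0, and the lowest value was 10, for Mog on an array of SEZ_CD24. Mbp, the myelin basic protein, read 10448 to 12372 in DIEC_GFP, 10834 and 11327 in SEZ_Prom and 1435 to 5701 in the other sorts. The 6 oligodendrocyte progenitor markers summed to 1119 to 2038 in SEZ_GFPprom, 2591 to 2713 in SEZ_GFP, 5504 to 7256 in SEZ_Prom and 511 to 2118 in SEZ_CD24, all under DIEC_GFP. Of the 10 astrocyte markers, 4 were lower than in DIEC_GFP in SEZ_GFPprom, 4 in SEZ_GFP, 3 in SEZ_Prom and 9 in SEZ_CD24. None was higher, and their median difference in SEZ_Prom was -0.98. All 5 proliferation markers were higher than in DIEC_GFP in each of the 4 SEZ sorts, with median differences of 3.05 in SEZ_Prom to 5.18 in SEZ_GFP, and of 8 neuroblast markers 7 were higher in SEZ_GFPprom, 8 in SEZ_GFP, 5 in SEZ_Prom and 8 in SEZ_CD24. The part of any of these markers in the differences of the members was not tested.

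**Figure D4:**
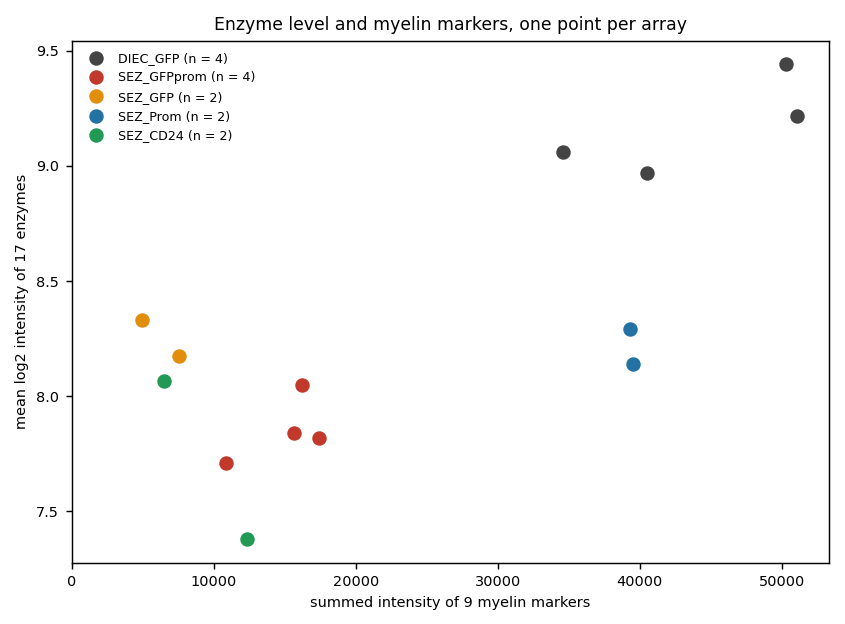
Mean log2 intensity of the 17 synthesis enzymes (vertical) against the summed intensity of the 9 myelin markers (horizontal), 1 point per array. The 2 SEZ_Prom arrays have myelin sums of 39340 and 39545, within the range of DIEC_GFP, and enzyme means of 8.29 and 8.14, under the 8.97 to 9.44 of DIEC_GFP.

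The quality of the amplified RNA moved with the sorts as well. The log2 ratio of 3′ to 5′ signal of the control transcripts was 5.40 ± 0.29 (SD) in DIEC_GFP, 5.15 ± 0.29 in SEZ_CD24, 4.94 ± 0.18 in SEZ_GFPprom, 4.73 ± 0.14 in SEZ_GFP and 4.63 ± 0.07 in SEZ_Prom. With this ratio in the fit, 9 members were lower than in DIEC_GFP in SEZ_GFPprom, 4 in SEZ_GFP, 15 in SEZ_CD24 and 0 in SEZ_Prom. Calls over all genes fell with it too, from 3247 in SEZ_GFPprom, 2302 in SEZ_GFP and 1151 in SEZ_Prom to the counts given in the last section. The ratio differed between the sorts, so ratio and sort cannot be fully told apart in this fit. Of the enzymes called in SEZ_Prom, Hmgcs1, Cyp51 and Nsdhl had larger differences with the ratio (-1.18, -1.58 and -1.98, from -1.04, -1.32 and -1.67). Those of Sqle and Msmo1 shrank (-1.16 and -1.23, from -1.82 and -1.49). In SEZ_GFPprom against DIEC_GFP the calls of Cyp51, Tm7sf2, Msmo1, Nsdhl, Dhcr7, Abcg1, Npc1 and Npc2 held in all 26 alternatives, this ratio included. Those of Hmgcs1, Mvd, Idi1 and Sqle were lost with it alone (adjusted p = 0.0559 to 0.169). Calls lost both with it and in other alternatives included that of Cyp46a1, whose difference fell to 0.61 with the ratio (adjusted p = 0.405). Of the 33 further probe sets of the members, 26 differed in the same direction as the brightest one in SEZ_GFPprom against DIEC_GFP, 6 in the opposite direction and 1 by 0.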

How the data were processed

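RNA of 14 fluorescence-sorted samples in 5 groups was amplified in 2 rounds, labelled with biotin and hybridised to 1-colour Affymetrix mouse arrays, per the labels' protocols. The deposited values are linear intensities rounded to whole numbers, made by the authors with RMA, per the submitters' processing notes, with no version given. The plan assumed log2 values, so log2 was taken here with no pseudocount. Each array had 25.4% to 25.7% of probe sets at 10 or less, and precision is limited by how many arrays a group has.

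Of 45101 probe sets, 34945 had 1 gene symbol in the platform table, and a gene was represented by its brightest one. Tests were two-sided and made with limma 3.58.1 (lmFit, contrasts.fit and eBayes, R 4.3.3) in 1 fit of all 14 arrays with a mean per group (9 residual and 2.63 prior degrees of freedom), in 7 comparisons and a moderated F, with Benjamini-Hochberg adjustment over all 18193 genes and a threshold of 0.05, at which a gene is called higher or lower. A difference is signed as the group named minus the one it is set against, with its SE from the fit. The fit was tested on simulated data. The members were chosen for their roles and not by a threshold on values, but they, the lists, the rules for named genes and the alternatives were set with earlier results of these data known. Array values are given for up to 4 members per role by the F test among those past the threshold, at least 1 log2 unit apart and without overlap, and for Insig1, Srebf1, Srebf2, Apoe, Abca1 and Cyp46a1. Up to 4 genes of each other list were named by their smallest adjusted p.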

Additional observations from a re-analysis of the deposited data

Results flagged for a closer look

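In groups of 4 arrays, an array was picked out where its gap to the nearest other exceeded 0.829 of the group's range (Dixon's test). This held for 6 of 58 member and group pairs, and chance alone gives about 1 in 20. They were Tm7sf2 in SEZ_GFPprom replicate 3 at an intensity of 48, Npc1 in SEZ_GFPprom replicate 3 at 52, Abcg1 in SEZ_GFPprom replicate 1 at 183, Msmo1 in DIEC_GFP replicate 2 at 2417, Dhcr7 in DIEC_GFP replicate 1 at 456 and Npc2 in DIEC_GFP replicate 2 at 4199. The calls of these 6 genes between SEZ_GFPprom and DIEC_GFP held without each of these arrays.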

How the results depend on the processing

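Over the members, 203 differences were recomputed under 26 alternatives. Of the recomputed values 4962 kept their side of the threshold, 251 lost a call and 64 gained one. A change of sign was counted only where the main or the recomputed difference was called, and there was 1. That was Lss in SEZ_GFP against DIEC_GFP without probe sets of shared sequence (-1.69), and of the other list genes Mbtps1 changed sign in SEZ_GFPprom against SEZ_Prom with the mean of probe sets (0.080 from -0.70). The causes were not tested. Leaving out 1 array gave, for members and then all genes, 2 to 9 and 719 to 2690 in SEZ_GFP against DIEC_GFP, 2 to 9 and 351 to 1214 in SEZ_Prom, 7 to 17 and 1714 to 3158 in SEZ_CD24, 0 to 5 and 348 to 1525 in SEZ_GFPprom against SEZ_Prom, and 2 to 6 and 1102 to 2649 against SEZ_CD24. It gave 198 to 646 genes against SEZ_GFP. Against DIEC_GFP, the count of members fell by a factor over 1.5 without either array of SEZ_GFP or SEZ_Prom in their comparisons, and without SEZ_CD24 replicate 1. The count over all genes fell so without either array of SEZ_GFP or SEZ_Prom and without SEZ_CD24 replicate 2. Among the comparisons of SEZ_GFPprom within the SEZ, gene counts did so without either SEZ_GFP array, either SEZ_Prom array, SEZ_CD24 replicate 2 and, against SEZ_Prom, SEZ_GFPprom replicate 1 (855). With the 3′ to 5′ ratio as a covariate the members called were 9 in SEZ_GFPprom against DIEC_GFP, 4 in SEZ_GFP and 0 in SEZ_Prom, and 0 and 2 in SEZ_GFPprom against SEZ_Prom and SEZ_CD24, with 1486, 1296 and 579 genes in the first 3. Fits of only the groups compared, which have fewer arrays, gave 4 members in SEZ_GFP, 2 in SEZ_Prom (538 genes) and 8 in SEZ_CD24 (1808 genes) against DIEC_GFP, and 2 and 2 (1580 genes) in SEZ_GFPprom against SEZ_Prom and SEZ_CD24. Array weights gave 3558 genes in SEZ_GFP against DIEC_GFP, 1364 in SEZ_GFPprom against SEZ_GFP and 7 members against SEZ_Prom, where a trend and robust prior gave 2 members and values under 10 set to 10 gave 1. The mean of probe sets gave 5 members in SEZ_Prom against DIEC_GFP. The replicate block gave 5 members there, 1 (811 genes) in SEZ_GFPprom against SEZ_Prom and 2 against SEZ_CD24. Deviations of same-numbered arrays from their group means correlated at r from -0.188 to 0.129 over 22 pairs, 3 of them over 0.1. Between groups of 2 arrays both replicates give the same r by construction, as with 0.129 for SEZ_CD24 and SEZ_GFP. These values are thus not independent, and with so few arrays they cannot show whether the numbers pair the arrays. The main counts were 2302, 1151, 3028, 577, 1302 and 2496 genes in the order of the ranges above, with SEZ_GFP before SEZ_Prom among the comparisons of SEZ_GFPprom. Equal medians moved the median of all genes from -0.01 to 0.13 in SEZ_CD24 against DIEC_GFP, from 0.07 to -0.15 in SEZ_GFPprom against SEZ_GFP and from 0.10 to -0.17 against SEZ_CD24.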
